A study of Mus musculus with 3 samples.

Results

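Lag3-positive Foxp3-negative CD4 T cells were followed in tumor-infiltrating leukocytes (TILs) of 3 droplet single-cell RNA sequencing libraries. A barcode was a member when it held at least 2 UMIs (unique molecular identifiers, 1 per captured transcript) of Cd3d, Cd3e, Cd3g, Trac, Trbc1 and Trbc2 together, at least 1 UMI of Cd4, at least 1 UMI of Lag3, and none of Foxp3, Cd8a or Cd8b1. Fewer than 5 UMIs of Lyz2, C1qa, C1qb, S100a8 and S100a9 together were allowed, to keep out macrophages and neutrophils, and fewer than 3 of Mki67 and Top2a, to keep out dividing cells. Of 71909 kept barcodes, 2631 met this rule, 559 with mono-IL-10, 539 with IL-10/2-Trikine and 1533 with IL-10/2-Trikine plus an anti-PD-1 antibody (the combination). In the same order, 340, 365 and 960 members held no Mki67 or Top2a UMI, and the rest held at least 1. The counts of the genes of this rule chose the members, so their levels in the members are a description and not a result. Ifng, Csf1 and Ccl3 were singled out with earlier results of these data known. Where 3 values stand in a row without a library name, they follow the order mono-IL-10, IL-10/2-Trikine, combination.

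All 3 groups were wild-type F1 mice (B6129SF1/J) that carried subcutaneous tumors of KP1, a mouse small-cell lung cancer (SCLC) line with mutant Rb and p53, started from 500000 cells. Mono-IL-10 is a monomeric form of IL-10, and IL-10/2-Trikine is the same protein joined to a modified IL-2 that brings in IL-2Rβ. Either was injected intraperitoneally at 3 µg per dose every other day between day 7 and day 19. In the third group the cytokine was joined by 200 µg of anti-PD-1 on day 7, day 11, day 15 and day 19. One reading of the protocol text gives every group this antibody, but only the combination has it in its title and treatment label, which decided the grouping. Tumors were taken on day 19 and live CD45+ cells were sorted, although the cell type label reads T cells. Each group is 1 library, the number of mice behind it is not given in the labels, and no untreated library was analysed here. No difference between libraries therefore has a replicate check. Intervals given with levels, shares and ratios are exact 95% intervals (normal on the log scale for a ratio of shares) and cover counting error only, not variation between mice, tumors or libraries.

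LAG-3 is an inhibitory receptor that binds MHC class II molecules and is induced on T cells that have met antigen. CD4 T cells of the Th1 type are driven by the transcription factor T-bet (Tbx21) and by IL-12 signaling through STAT4, and they secrete interferon-gamma (Ifng), which activates macrophages and raises antigen presentation. Activated CD4 T cells can also make the macrophage growth factor M-CSF (Csf1) and the chemokines Ccl3 and Ccl4, which attract monocytes and T cells. Some acquire perforin and granzymes, the proteins with which cytotoxic lymphocytes kill. LAG-3 together with IL-10 is also known from type 1 regulatory (Tr1) cells, which lack Foxp3.

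The members carried T cell transcripts at higher levels, and macrophage and dendritic cell markers at lower levels, than all kept barcodes together. Part of this was set by the rule. It asked for Cd3d, Cd3e, Cd3g, Trac, Trbc1 and Trbc2 of the T cell list. It capped Lyz2, C1qa and C1qb of the macrophage list and S100a8 and S100a9 of the neutrophil list. Sums that include these genes are a description and no independent check of identity. A list of 10 T cell markers summed to 9991, 9188 and 10447 CPM (UMIs per 1000000 UMIs of the cells concerned), against 3694, 4389 and 4702 CPM over all kept barcodes of the same libraries, and none of the 10 was at 0. The 11 macrophage and monocyte markers summed to 310, 390 and 265 CPM in members and to 8037, 3350 and 5423 CPM over all kept barcodes, with none at 0 in members. Lag3-negative Foxp3-negative CD4 T cells held 348, 373 and 390 CPM of the same list. Neutrophil markers (5 genes) reached 1.06 to 3.34 CPM, mast cell and basophil markers (4 genes) 0.743 to 4.67 CPM and KP1 tumor cell markers (6 genes) 8.20 to 17.7 CPM. Dendritic cell markers (7 genes) stood at 273, 286 and 117 CPM, against 1751, 767 and 1125 CPM over all kept barcodes. The 6 B cell markers reached 70.0, 718 and 416 CPM, against 373, 274 and 285 CPM over all kept barcodes, and 1 barcode held 94.1% of the UMIs of Ighm, the heavy chain of IgM, in IL-10/2-Trikine members and 95.7% of those in combination members. NK cell markers (6 genes) stood at 246, 180 and 219 CPM, against 217, 355 and 331 CPM over all kept barcodes. Gamma-delta T cell markers (4 genes) were above that level in every library, at 103, 176 and 144 CPM against 43.6, 164 and 123 CPM. The 4 regulatory T cell markers summed to 521, 874 and 911 CPM, against 350, 672 and 701 CPM over all kept barcodes, with Foxp3 itself at 0 in members, and the CD8 markers were at 0, because the rule set them there.

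Depth differed between members and the cells beside them in the gate. Members had a median of 4895, 4500 and 5126 UMIs per cell, while Lag3-negative Foxp3-negative CD4 T cells, chosen by the same rule but with no Lag3 UMI, had 3347, 3081 and 3226. Cells read more deeply have more chance to show a Lag3 UMI, so the gate favors deep cells. Over all kept barcodes the median ran from 4273 to 5562 UMIs. The libraries shared 137 to 180 kept barcodes pair by pair, 0.616% to 0.793% of the smaller library, and 5, 6 and 13 members carried a barcode that was also kept in another library. Called doublets made up 34 of 559, 51 of 539 and 34 of 1533 members (6.08%, 9.46% and 2.22%), against 14.1%, 16.3% and 5.27% of all kept barcodes, so the rate of calls itself differed between libraries.

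The member share of Foxp3-negative non-cycling CD4 T cells was about the same with either cytokine alone and higher in the combination library. Dividing Lag3-positive Foxp3-negative CD4 T cells are left out of it and differed more between the cytokines, at 166, 549 and 771 cells. Members made up 559 of 1432 such cells with mono-IL-10 (39.0%, 95% interval 36.5 to 41.6), 539 of 1353 with IL-10/2-Trikine (39.8%, 37.2 to 42.5) and 1533 of 2632 with the combination (58.2%, 56.3 to 60.1). The ratio of shares was 1.02 (0.931 to 1.12) for IL-10/2-Trikine over mono-IL-10 and 1.46 (1.36 to 1.57) for the combination over IL-10/2-Trikine. Against all T cells of the gate, 9083, 14088 and 14524 cells, members made up 6.15%, 3.83% and 10.6%, and against all kept barcodes 2.51%, 2.37% and 5.68%. When each cell was first thinned to 2000 UMIs and the whole gate was redrawn, the shares of CD4 cells were 29.3%, 28.1% and 41.6%. This sets the depth equal but also lets other cells through the limits of the gate, and the CD4 cells then numbered 1278, 1447 and 2510. With at least 2 Lag3 UMIs asked for, they were 26.1%, 21.1% and 39.9%, so at that limit the IL-10/2-Trikine library lay below mono-IL-10.

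**Figure D1:**
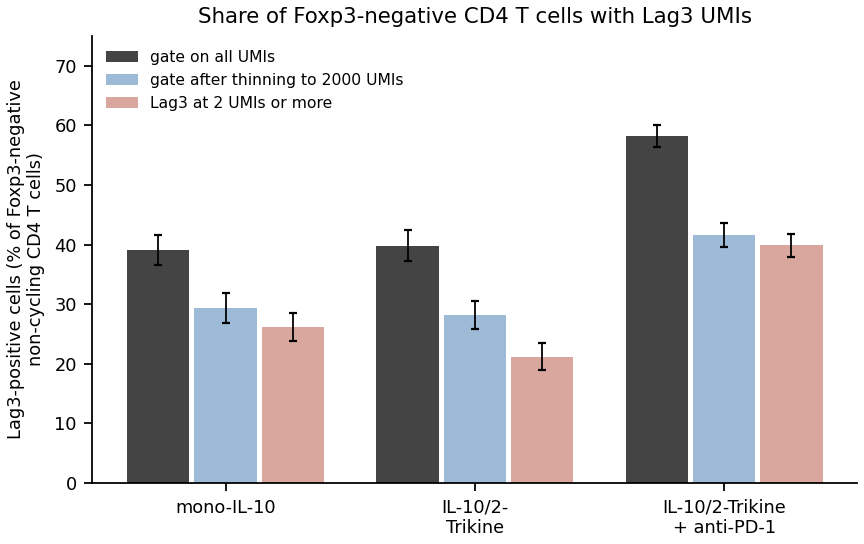
Share of Foxp3-negative non-cycling CD4 T cells that met the Lag3 rule in each library, in percent with exact binomial 95% intervals, under the rule itself, after thinning each cell to 2000 UMIs, and with at least 2 Lag3 UMIs. The combination library is the highest under all 3, at 58.2%, 41.6% and 39.9%.

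The promoters of Ifng, Csf1 and Ccl3 are printed because the levels of these 3 genes are what the comparisons below turn on. Each runs from 250 bases before to 50 bases after the annotated start (RefSeq, GRCm38.p6), 5′ to 3′ on the gene's own strand, at chr10:118440796-118441095 (plus strand) for Ifng, chr3:107760420-107760719 (minus strand) for Csf1 and chr11:83649329-83649628 (minus strand) for Ccl3. Capitals mark GGAAA on either strand, seen as GGAAA or TTTCC, the core letters that NFAT factors of antigen receptor signaling recognize. These coordinates belong to the RefSeq table and not to the authors' alignment.
Ifng: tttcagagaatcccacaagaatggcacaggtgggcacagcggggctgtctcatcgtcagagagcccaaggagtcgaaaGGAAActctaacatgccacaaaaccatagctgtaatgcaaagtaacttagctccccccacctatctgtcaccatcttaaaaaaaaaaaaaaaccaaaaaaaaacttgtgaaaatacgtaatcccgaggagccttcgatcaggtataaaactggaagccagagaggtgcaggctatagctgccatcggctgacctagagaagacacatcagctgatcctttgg
Csf1: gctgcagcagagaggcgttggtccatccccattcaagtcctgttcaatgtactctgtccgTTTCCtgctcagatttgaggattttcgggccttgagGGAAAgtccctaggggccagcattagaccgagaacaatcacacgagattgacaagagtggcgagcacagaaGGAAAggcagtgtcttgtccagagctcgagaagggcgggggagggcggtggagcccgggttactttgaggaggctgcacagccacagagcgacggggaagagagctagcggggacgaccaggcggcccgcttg
Ccl3: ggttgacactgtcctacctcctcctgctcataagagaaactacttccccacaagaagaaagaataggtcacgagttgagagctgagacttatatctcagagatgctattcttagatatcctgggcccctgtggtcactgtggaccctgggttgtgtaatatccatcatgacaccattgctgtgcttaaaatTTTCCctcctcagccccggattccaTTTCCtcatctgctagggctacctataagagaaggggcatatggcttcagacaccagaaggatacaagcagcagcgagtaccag

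The Ifng window held 1 match of GGAAA, the Ccl3 window 2 and the Csf1 window 3, against a median of 1 over all windows, and 61.3% of the 32851 windows of the table held at least 1. None of the 3 held TGANTCA, the AP-1 letters searched on both strands, which 7.81% of all windows held. Ccl4 and Lag3 had no entry in the table. A match of letters is a description and not evidence of binding.

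Ccl3, Csf1, Ifng, Prf1 and Havcr2 stood higher, and Tcf7 and Tnfsf8 lower, in cells with more Lag3 UMIs. This contrast follows the rule and is given as a description. Just outside the threshold, at 0 Lag3 UMIs (873, 814 and 1099 cells), Ccl3 stood at 91.3, 122 and 239 CPM, and just inside it, at 1 Lag3 UMI (185, 253 and 484 cells), at 773, 199 and 722 CPM. Csf1 went from 40.5, 87.8 and 124 CPM at 0 to 210, 165 and 204 CPM at 1. Ifng went from 180, 154 and 192 CPM to 428, 190 and 328 CPM. The step at the threshold was thus largest with mono-IL-10 for all 3 genes and smallest with IL-10/2-Trikine for Ccl3 and Ifng, and in the IL-10/2-Trikine library the Ifng levels at 0 and at 1 were close. Cells with 5 or more Lag3 UMIs (146, 78 and 349) had 2596, 1417 and 2405 CPM of Ccl3, 526, 401 and 396 CPM of Csf1, and 962, 391 and 782 CPM of Ifng.

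Perforin (Prf1) and Tim-3 (Havcr2), an inhibitory receptor, followed the same gradient in every library. Prf1 went from 69.4, 94.0 and 179 CPM at 0 Lag3 UMIs to 637, 1128 and 1284 CPM at 5 or more, and Havcr2 from 29.2, 126 and 155 CPM to 464, 538 and 547 CPM. Tcf7, the transcription factor of naive and memory T cells, went the other way, from 458, 163 and 133 CPM to 37.1, 8.03 and 14.6 CPM. Tnfsf8, the CD30 ligand, went from 283, 397 and 360 CPM to 68.2, 126 and 74.4 CPM. PD-1 (Pdcd1) showed a gradient with mono-IL-10 alone, 129 CPM at 0 and 316 at 5 or more Lag3 UMIs, and little in the other libraries, 302 and 283 CPM with IL-10/2-Trikine and 409 and 451 CPM with the combination. Median depth was higher along the same axis, from 3347 to 5714 UMIs in mono-IL-10, from 3081 to 4912 in IL-10/2-Trikine and from 3226 to 5787 in the combination, and its part in these gradients was not tested.

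**Figure D2:**
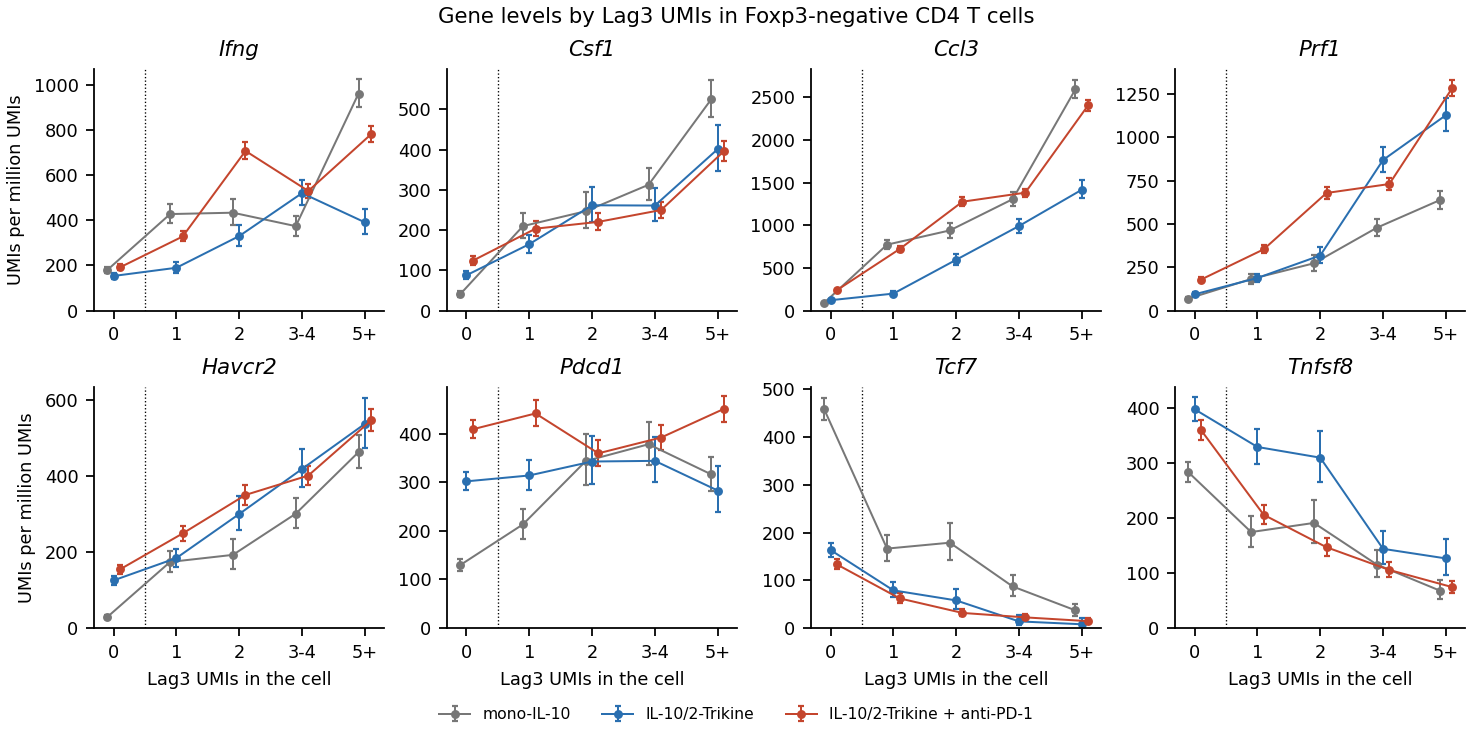
Levels of 8 genes (CPM) in Foxp3-negative CD4 T cells with 0, 1, 2, 3 to 4, and 5 or more Lag3 UMIs, 1 line per library with exact Poisson 95% intervals. The dotted line marks the threshold of the rule. Ccl3 at 5 or more Lag3 UMIs reaches 2596, 1417 and 2405 CPM, and Tcf7 stands at 37.1, 8.03 and 14.6 CPM.

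Between members and Lag3-negative cells, 4.49% of 10458 genes with at least 20 UMIs were 2-fold or more higher in members with mono-IL-10 and 4.21% lower, 2.24% and 2.06% of 10135 with IL-10/2-Trikine, and 2.3% and 3.83% of 11476 with the combination. In all 3 libraries at once, 47 of 9845 genes were at least 2-fold higher in members (0.477%) and 37 at least 2-fold lower (0.376%). Among the 47 were Ccl3, Ccl4 and Ccl9 of the 7 measured chemokines, Ifng and Csf1 of 9 cytokines, Havcr2 and Entpd1 of 14 inhibitory and exhaustion genes, and Gzma, Prf1 and Nkg7 of 16 cytotoxic genes. Entpd1 encodes CD39, an enzyme that breaks down extracellular ATP. The cytokine list as a whole had 4, 4 and 3 genes at least 2-fold higher in members and 2, 0 and 2 lower, and Tnf was seen in 2.33%, 2.60% and 1.57% of thinned members against 4.80%, 2.97% and 1.89% of Lag3-negative cells and 0.487%, 0 and 0.862% of B cells. Of 11 naive and memory genes, 10 were lower in members in every library, as were 2350 of all 9845 genes, and 3 passed 2-fold in all of them, Tcf7, Ccr7 (lymph node homing) and S1pr1 (exit from tissue). Cxcr3, a chemokine receptor of Th1 cells, was the 1 gene of 15 in the Th1 list that passed 2-fold in all 3 libraries, and it was lower, at 46.1 against 145 CPM with mono-IL-10, 36.7 against 86.2 with IL-10/2-Trikine and 21.1 against 79.3 with the combination.

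The genes with the highest smallest log2 ratio over the 3 libraries were Ccl3 (4.04, 2.41 and 2.60), Prf1 (2.57, 2.45 and 2.09), Ccl4 (2.27, 1.79 and 1.94), Penk, which encodes proenkephalin (2.06, 2.01 and 1.52), Havcr2 (3.36, 1.33 and 1.33) and the protease inhibitor gene Serpine2. They were followed by Csf1, Nkg7, Setbp1, Ifng, Sdcbp2, Gzma, Entpd1, Il10 and Sdf4. The lowest were Tcf7 (-2.08, -1.73 and -2.01), the integrin gene Itgb1 (-1.64, -1.56 and -1.85), S1pr1 (-2.63, -1.33 and -1.93), Cxcr3 and Slamf6, followed by Asap1, Gramd3, Ccr7, Cd40lg, Klf3, Zfp36l2, Cd69, Hspa1a, Lef1 and Klf2. Ifng was higher in members by a log2 ratio of 1.70, 1.06 and 1.60, Csf1 by 3.07, 1.47 and 1.12, and Il10 by 1.96, 0.99 and 1.38. With cells thinned to 2000 UMIs before the gate, the Ccl3 ratios were 2.42, 0.91 and 0.73, and those of Ifng 0.33 with IL-10/2-Trikine and 0.69 with the combination.

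For Ifng, Csf1 and Ccl3, shares of cells with a UMI were higher in members than in Lag3-negative cells at equal depth. After thinning to 1000 UMIs per cell, Ifng was seen in 28.5%, 16.5% and 24.7% of members and in 11.8%, 10.3% and 11.0% of Lag3-negative cells. Csf1 was seen in 22.8%, 21.0% and 21.6% of members against 2.69%, 6.57% and 11.0%, and Ccl3 in 28.7%, 22.1% and 30.2% against 4.33%, 4.34% and 7.86%. In B cells, used as a rough measure of background (623, 114 and 116 cells with median depths of 3472, 3774 and 4030 UMIs), the shares were 0.162%, 0.877% and 0 for Ifng, 0.649%, 2.63% and 1.72% for Csf1, and 0.649%, 1.75% and 0 for Ccl3, where a count of 0 allows up to 3.13% by the exact interval. B cells were barcodes with B cell transcripts, fewer than 2 UMIs of the T cell genes of the rule and fewer than 5 of its macrophage and neutrophil genes. This leaves out B cells that picked up more T cell transcripts, so these shares may understate the background. Whether some B cells express these genes themselves was not tested. Without thinning, Ifng was seen in 57.8%, 41.7% and 51.4% of members, Csf1 in 44.4%, 46.4% and 54.0%, and Ccl3 in 47.0%, 37.8% and 51.3%.

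Expression was uneven within the members. After thinning, 49.1%, 58.7% and 49.0% of members had no UMI of Ifng, Csf1 or Ccl3, and 7.17%, 4.46% and 4.57% had all 3. Ccl3 was seen in 49.7%, 49.4% and 51.6% of members with Ifng and in 20.3%, 16.7% and 23.2% of those without it. The 10% of members with most Ccl3 held 80.1%, 80.8% and 74.7% of its UMIs, against 62.2%, 69.6% and 70.1% for Ifng and 51.3%, 50.8% and 44.1% for Csf1. Levels of Ccl3 and Ifng in a library therefore rest on a minority of the members. Csf1 UMIs were less concentrated, but with mono-IL-10 fewer members held one (248, against 323 for Ifng and 263 for Ccl3). With IL-10/2-Trikine (250 against 225 and 204) and the combination (828 against 788 and 787) more members did. The 10% of members with most Cd4 held 26.8%, 24.9% and 24.7% of its UMIs. The rule asked for a Cd4 UMI in every member, so Cd4 is no reference for an evenly spread gene. Tcf7 was seen in 0.625%, 1.68% and 0.866% of members with Ccl3 and in 12.3%, 4.30% and 4.49% of those without it.

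The comparison of IL-10/2-Trikine with mono-IL-10 asks what the added IL-2Rβ arm does in these cells, and that of the combination with IL-10/2-Trikine what the antibody against PD-1 adds. They share the IL-10/2-Trikine library, so a high or low value there enters both. Of 10252 genes with at least 20 UMIs in members of the first pair, 269 (2.62%) were at least 2-fold higher with IL-10/2-Trikine and 463 (4.52%) at least 2-fold lower, with a median log2 ratio of -0.11. Scaling by TMM factors put that median at 0.01 and the split at 343 higher and 356 lower, so differences of the first pair are to be read against that shift, and gates drawn after thinning to 2000 UMIs gave 395 and 340. Of 11199 genes in the second pair, 286 (2.55%) were at least 2-fold higher with the combination and 320 (2.86%) lower, with a median log2 ratio of -0.0018, and the gates drawn after thinning gave 189 and 568. Counts of list genes past 2-fold between libraries are to be read beside these shares of all genes in the 2 pairs.

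Ccl3, Ccl4, Ifng and Csf1 in the members were lowest in the IL-10/2-Trikine library. Ccl3 stood at 1504, 646 and 1450 CPM and Ccl4 at 2462, 1052 and 2458 CPM, so that mono-IL-10 and the combination lay close together with the IL-10/2-Trikine library well below. Ifng had the same shape, at 584, 321 and 580 CPM. Csf1 differed less, at 340, 243 and 270 CPM. The log2 ratio of IL-10/2-Trikine over mono-IL-10 was -1.22 for Ccl3 (-1.30 to -1.14), -1.23 for Ccl4 (-1.29 to -1.17), -0.86 for Ifng (-0.98 to -0.75) and -0.48 for Csf1 (-0.62 to -0.35). The ratio of the combination over IL-10/2-Trikine was 1.17 for Ccl3 (1.10 to 1.24), 1.22 for Ccl4 (1.17 to 1.28), 0.86 for Ifng (0.76 to 0.96) and 0.15 for Csf1 (0.03 to 0.27), and the last turned to -0.041 with at least 2 Lag3 UMIs asked for. The Ccl3 ratios came under 2-fold under some settings, at -0.86 and 0.81 with 2 Lag3 UMIs asked for, at -0.92 in the first pair with cells weighted equally and at 0.99 in the second without called doublets.

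Free RNA was measured in empty droplets and roughly in B cells, whose gate left out barcodes with more T cell UMIs. Empty droplets held 229, 184 and 244 CPM of Ccl3 and 73.4, 105 and 90.8 CPM of Ifng, while B cells held 11.0, 7.29 and 10.8 CPM of Ccl3. The part of free RNA in the members' levels was not tested.

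Other T cells of the same libraries did not all show this shape. Ifng in Lag3-positive CD8 T cells (1304, 953 and 1453 cells) stood at 294, 80.9 and 70.1 CPM, high with mono-IL-10 and about level between the other libraries. In Foxp3-positive CD4 T cells (121, 353 and 354 cells) it stood at 149, 152 and 144 CPM, and in Lag3-negative CD4 T cells at 180, 154 and 192 CPM. Ccl3 in Lag3-positive CD8 T cells was 461, 151 and 134 CPM, in Foxp3-positive cells 99.2, 286 and 259 CPM, and in Lag3-negative CD4 T cells 91.3, 122 and 239 CPM. The Ccl3 level of the combination was thus higher than that of IL-10/2-Trikine in both non-cycling Foxp3-negative CD4 classes. It was not higher in Lag3-positive CD8 T cells or Foxp3-positive cells. These libraries allow no test of this difference between classes. Dividing Lag3-positive Foxp3-negative CD4 T cells (166, 549 and 771 cells), set apart by at least 3 UMIs of Mki67 and Top2a, had 495, 428 and 1103 CPM of Ccl3, 371, 318 and 456 CPM of Ifng and 82.9, 55.4 and 90.9 CPM of Csf1. Csf1 was low in Lag3-positive CD8 T cells, at 27.5, 21.3 and 46.4 CPM, and reached 171, 195 and 191 CPM in Foxp3-positive cells.

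**Figure D3:**
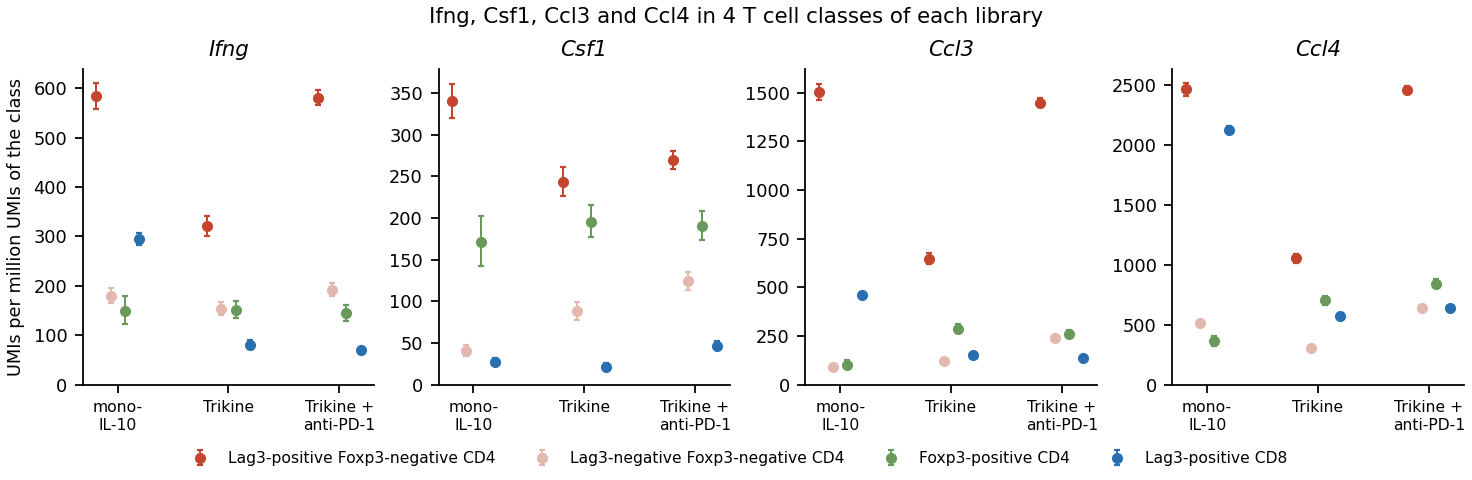
Levels (CPM) of Ifng, Csf1, Ccl3 and Ccl4 in members, Lag3-negative CD4 T cells, Foxp3-positive CD4 T cells and Lag3-positive CD8 T cells of each library, with exact Poisson 95% intervals. In members, Ifng (584, 321 and 580), Ccl3 (1504, 646 and 1450) and Ccl4 (2462, 1052 and 2458) are lowest in the IL-10/2-Trikine library.

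Of 7 measured chemokine genes, 4 were at least 2-fold lower with IL-10/2-Trikine than with mono-IL-10 and 1 was higher, with a median log2 ratio of -1.22 against -0.11 for all genes. Ccl5, another chemokine of effector T cells, stood at 7957, 2988 and 3340 CPM, a ratio of -1.41 and then 0.16, so it stayed low with the combination where Ccl3 and Ccl4 did not. Xcl1, which attracts cross-presenting dendritic cells, stood at 373, 107 and 313 CPM (-1.80 and 1.54), and the 10% of members with most of it held 98.2% to 100% of its UMIs, with a UMI in 77, 50 and 191 cells. Cxcl10, an interferon-induced chemokine, went the other way at 48.3, 108 and 53.3 CPM. With the combination, 3 of 7 chemokines were at least 2-fold higher than with IL-10/2-Trikine (Ccl3, Ccl4 and Xcl1) and 1 was lower (Cxcl10), with a median of 0.16, although Ccl4 came to 0.88 with cells weighted equally.

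Of 10 measured cytokine genes, Il21 passed 2-fold in the first pair. Il21, a cytokine of follicular helper T cells, stood at 45.1, 21.4 and 29.5 CPM (-1.08, -1.53 to -0.64). At equal depth it was seen in 2.69%, 2.79% and 2.81% of members and in none of the thinned B cells. The first 2 shares rest on 15 cells each, with intervals of 1.51% to 4.40% and 1.57% to 4.56%. These are too wide to tell whether the share of members with Il21 followed its level. Il10 stood at 59.9, 93.1 and 107 CPM, higher with IL-10/2-Trikine by 0.64 (0.36 to 0.91). Tnf, the tumor necrosis factor gene, was low throughout at 32.5, 21.0 and 12.7 CPM, and Il2 had 9, 11 and 10 UMIs in all members, at 2.84, 3.67 and 1.06 CPM. Csf2, which encodes GM-CSF, stood at 54.9, 52.1 and 35.2 CPM. In the second pair Il2 passed 2-fold downward on those few UMIs and no other listed cytokine did, and the medians of the list were -0.27 and -0.17, the latter 0.24 without cells that held any Mki67 or Top2a UMI.

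Measured genes of the Th1 program differed by less than 2-fold in both pairs. None of its 15 genes measured in the first pair, and none of 16 in the second, passed 2-fold in either direction, and the medians were -0.22 and 0.05. Of all genes, 2.62% passed upward and 4.52% downward in the first pair, and 2.55% and 2.86% in the second. A count of 0 of 15 or 16 lies near those shares. Tbx21 stood at 116, 114 and 144 CPM and Stat4 at 1080, 923 and 973 CPM. Il12rb2, the IL-12 receptor chain of Th1 cells, stood at 139, 204 and 201 CPM, and Runx3, a partner of T-bet, at 319, 429 and 516 CPM. Cxcr6, a receptor of tissue-resident T cells, stood at 550, 428 and 608 CPM. Cxcr3 stood at 46.1, 36.7 and 21.1 CPM, so mono-IL-10 and the combination, which do not form one of the pairs, lay more than 2-fold apart. Tbx21 was higher in members than in Lag3-negative cells (68.5, 79.7 and 106 CPM), Foxp3-positive cells (49.6, 82.2 and 83.4 CPM) and Lag3-positive CD8 T cells (72.5, 61.9 and 78.7 CPM) of every library.

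Gzma and Gzmb were higher, and Gzmk lower, in both libraries with the Trikine than with mono-IL-10. Gzma stood at 2436, 6719 and 5955 CPM and Gzmb at 1152, 2543 and 3228 CPM, log2 ratios of 1.46 and 1.14 for IL-10/2-Trikine over mono-IL-10. Free RNA carried both genes as well, with 1218, 5098 and 5361 CPM of Gzma and 1259, 2688 and 2897 CPM of Gzmb in empty droplets, and its part in these levels was not tested. B cells, which should lack both, held 39.6, 40.1 and 60.9 CPM of Gzmb and 58.6, 78.4 and 120 CPM of Gzma. Their gate left out barcodes with more T cell UMIs, so they may understate free RNA. Prf1 stood at 412, 515 and 763 CPM, the highest value with the combination (0.57, 0.49 to 0.65, over IL-10/2-Trikine). Gzmk, a granzyme of less differentiated cells, stood at 280, 140 and 111 CPM. Of 17 measured cytotoxic genes, 4 were at least 2-fold higher with IL-10/2-Trikine and 1 lower, median 0.32, and 1 was higher and 1 lower with the combination than with IL-10/2-Trikine, median 0.30. Gzme, at 90.9, 24.7 and 30.6 CPM, came from 6, 6 and 30 cells, and 1 cell held 49.0% of its UMIs with mono-IL-10 and 89.2% with IL-10/2-Trikine. Its first-pair ratio of -1.88 was -4.12 without the highest cell of each library and -1.08 without cells that held Lyz2, C1qa, C1qb, S100a8 or S100a9.

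Of the inhibitory receptor and exhaustion genes, Pdcd1, Ctla4, Havcr2, Tigit and Entpd1 differed by less than 2-fold in both pairs. PD-1 (Pdcd1) stood at 307, 321 and 414 CPM, a ratio of 0.06 (-0.07 to 0.19) and then 0.37 (0.27 to 0.47). Ctla4 stood at 1092, 1480 and 1601 CPM, Havcr2 at 299, 315 and 388 CPM, Tigit at 61.8, 57.4 and 71.2 CPM and Entpd1 at 245, 216 and 276 CPM. Tox, a transcription factor of exhausted T cells, stood at 869, 408 and 501 CPM and its relative Tox2 at 41.6, 8.01 and 12.8 CPM. These were the 2 of 14 genes that passed 2-fold in the first pair, both lower, while none passed in the second, and the medians were -0.15 and 0.30. The quartiles of the first pair were -0.81 and 0.17, so further genes of the list were lower with IL-10/2-Trikine. After thinning, Pdcd1 was seen in 20.8%, 27.0% and 32.1% of members and in 9.59%, 24.2% and 30.4% of Lag3-negative cells, against 0.162%, 1.75% and 0 of B cells.

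Costimulatory genes went both ways in the first pair, with a median of 0.22 and quartiles of -0.18 and 0.57, and the median of the second pair was 0.01. Icos was lowest with mono-IL-10, at 656, 819 and 817 CPM, as were 4-1BB (Tnfrsf9, 392, 625 and 710 CPM), OX40 (Tnfrsf4, 362, 486 and 555 CPM) and GITR (Tnfrsf18, 245, 395 and 338 CPM), while Cd226, a receptor that shares ligands with TIGIT, was highest there (117, 82.4 and 98.9 CPM). None of these reached 2-fold, and 1 of 14 genes of the list did in the first pair, Tnfsf14, on 7.89 against 1.33 CPM. Tnfsf8 stood at 129, 252 and 133 CPM and the CD40 ligand (Cd40lg), which licenses dendritic cells and B cells, at 44.8, 68.7 and 36.9 CPM. Among 19 genes induced by the antigen receptor, Egr2 (13.2, 1.33 and 2.65 CPM) and Myc (14.2, 6.67 and 8.71 CPM) were at least 2-fold lower with IL-10/2-Trikine, with a median of -0.38, and none passed in the second pair, median 0.14. Nr4a2 stood at 476, 257 and 372 CPM and Nr4a1 at 213, 164 and 172 CPM.

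Genes downstream of IL-2 and STAT5 differed in a few members of the list. Of 22, 3 were at least 2-fold higher with IL-10/2-Trikine (Il2ra, Socs2 and Gzmb) and 1 lower (Pim2), median 0.11, and none passed in the second pair, median -0.02. Il2ra, the high-affinity chain of the IL-2 receptor, stood at 63.4, 203 and 166 CPM (1.68, 1.45 to 1.92) and Socs2, a feedback inhibitor of cytokine receptors, at 19.6, 82.7 and 66.4 CPM (2.08, 1.67 to 2.51). Cish, a STAT5-induced inhibitor, stood at 89.9, 128 and 101 CPM and Il2rb at 338, 328 and 427 CPM. After thinning, Il2ra was seen in 4.12%, 13.8% and 11.0% of members, against 0.812%, 4.39% and 1.72% of B cells. Of 15 genes of the IL-10 and STAT3 list, Bcl6 alone passed 2-fold, lower with IL-10/2-Trikine (79.8, 38.7 and 39.6 CPM), and the medians were -0.21 and 0.06. Stat3 stood at 1115, 789 and 1032 CPM, Socs3 at 120, 88.8 and 79.9 CPM and Il10ra, which binds IL-10, at 65.0, 39.0 and 31.2 CPM.

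The Ifitm genes, which encode interferon-induced membrane proteins, were much higher with IL-10/2-Trikine. Ifitm2 stood at 303, 1607 and 1164 CPM (2.41, 2.31 to 2.51), Ifitm1 at 184, 784 and 882 CPM (2.09) and Ifitm3 at 269, 558 and 587 CPM (1.05, 0.93 to 1.17). Ifitm10 went the other way on low levels, at 7.89, 3.67 and 5.10 CPM. After thinning, Ifitm2 was seen in 14.9%, 55.9% and 47.1% of members, against 2.44%, 2.63% and 3.45% of B cells. The first-pair ratio of Ifitm2 was between 1.61 and 3.17 in the 6 T cell classes, at 3.17 in Lag3-negative CD4 T cells and 1.61 in Foxp3-positive cells, and 0.12 in macrophages. Other interferon genes did not follow. Of 18 interferon-alpha response genes, 5 were at least 2-fold lower and none higher, all at under 12 CPM with mono-IL-10 (Ifit3, Mx1, Rsad2, Usp18 and Oasl2), with a median of -0.34, and none of 17 passed in the second pair. Of 18 interferon-gamma response genes, 1 passed upward in the first pair, Cxcl10, and 2 passed downward in the second, Cxcl10 and Ciita, with medians of -0.15 and 0.10.

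The 7 measured Th2 genes were highest with IL-10/2-Trikine. Of them, 6 were at least 2-fold higher with IL-10/2-Trikine than with mono-IL-10, with a median of 2.41, and 4 were at least 2-fold lower with the combination than with IL-10/2-Trikine, median -1.10. Gata3, the Th2 transcription factor that other T cells express as well, stood at 58.4, 122 and 109 CPM. Il1rl1, the IL-33 receptor, stood at 8.83, 47.1 and 22.0 CPM. Il13 stood at 1.58, 70.4 and 13.7 CPM but came from 1, 21 and 30 cells, and 1 cell held 117 of the 211 UMIs in the IL-10/2-Trikine library (55.5%). Il5 had 2, 29 and 12 UMIs and Il4 4, 30 and 81 UMIs, 62 of the 81 in 1 cell. Without cells that held any Mki67 or Top2a UMI the median of the list was 1.35 in the first pair and -0.40 in the second, and with at least 2 Lag3 UMIs asked for it was 3.49 in the first pair.

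Genes of follicular helper (Tfh) cells were lower with IL-10/2-Trikine. Of 8 measured, 5 passed 2-fold downward and none upward, median -1.06, although under each of 8 alternative settings the median lay between -0.96 and -0.79. They were Bcl6, Cxcr5 (48, 12 and 25 UMIs), Il21, Tox2 and Il6ra (13.6, 6.34 and 2.87 CPM). Bcl6, Il21 and Tox2 are also counted as lower in other lists here, so these list results are not independent. With the combination, Il6ra passed downward over IL-10/2-Trikine and the median was -0.08. Of 12 naive and memory genes, 3 were at least 2-fold lower in the first pair and 1 was higher, median -0.58. Tcf7 stood at 108, 49.4 and 33.1 CPM and Id3, which holds back effector differentiation, at 17.4, 4.67 and 3.50 CPM. The third, Igfbp4, had 24, 0 and 1 UMIs and was counted with the library at 0 set to a floor of 3 UMIs. Lef1, a partner of Tcf7, stood at 123, 85.4 and 69.5 CPM. Il7r, the receptor for the survival cytokine IL-7, was the 1 that was higher, at 309, 718 and 506 CPM (1.22, 1.11 to 1.33). None of 11 passed in the second pair, where the median was -0.38.

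Regulatory genes other than Foxp3 were found in members. The 4 regulatory T cell markers summed to 521, 874 and 911 CPM there and to 368, 688 and 827 CPM in Lag3-negative cells. Whether some members were regulatory T cells whose Foxp3 transcripts were not captured was not tested. Of 9 measured genes of the Treg list, Il2ra passed 2-fold upward in the first pair, median 0.69, and of 10 in the second Klrg1 passed downward (15.8, 22.4 and 7.43 CPM), median -0.14, or 0.11 with gates drawn after thinning. Ikzf2, which encodes Helios, stood at 490, 826 and 869 CPM. Of 12 genes tied to Tr1 cells, Gzmb was at least 2-fold higher with IL-10/2-Trikine, Il21 and Eomes were at least 2-fold lower, and none passed in the second pair, with medians of -0.07 and 0.12. Maf, which drives Il10 in T cells, stood at 396, 469 and 444 CPM, Prdm1, which encodes Blimp-1, at 110, 66.4 and 65.1 CPM, and Eomes at 54.6, 10.3 and 12.5 CPM. Few Th17 genes were measured. Rora was the 1 of 8 with 20 UMIs in the first pair (551, 321 and 341 CPM), and in the second pair 2 of 3 measured genes passed upward, both under 6 CPM in every library.

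**Figure D4:**
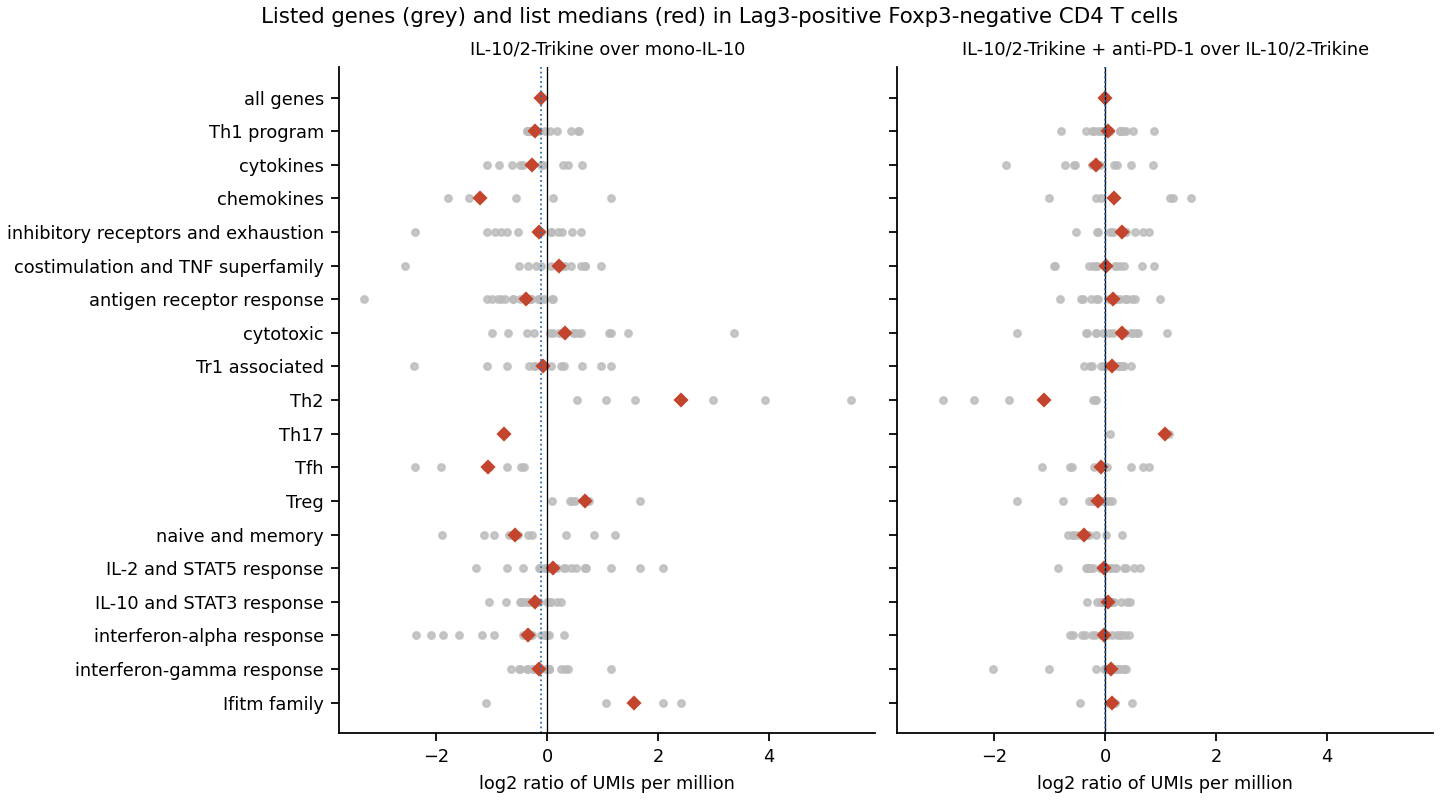
Log2 ratio of each listed gene in members for IL-10/2-Trikine over mono-IL-10 and for the combination over IL-10/2-Trikine (grey points, genes with at least 20 UMIs in the pair and UMIs in both libraries), with the median of each list as a red diamond and the median of all genes as a dotted line. In the first comparison the chemokine median is -1.22, the Tfh median -1.06 and the Th2 median 2.41, against -0.11 for all genes.

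The 10 highest ratios of IL-10/2-Trikine over mono-IL-10 belonged to Il13 (5.48), Lgals7 (3.73), Ifitm2 (2.41), Ifitm1 (2.09), Socs2 (2.08), Rrad (1.96), Pclaf (1.95), Asb2 (1.85), Serpinb1a (1.73) and Il2ra (1.68). Lgals7, which encodes galectin-7, stood at 6.63, 87.8 and 40.1 CPM in 9, 80 and 161 cells. Its ratio was 3.08 with the gate drawn after thinning and 4.82 with Mki67 and Top2a at 0. That of Il13 was 4.22 with at least 2 Lag3 UMIs asked for. Pclaf, a gene of DNA replication, stood at 18.9, 73.1 and 60.3 CPM, and members may hold up to 2 UMIs of Mki67 and Top2a. Rrad, a small GTPase of the Ras family, stood at 16.1, 62.7 and 53.7 CPM. The 10 lowest were Jun (-2.79), Eomes (-2.40), Pacsin1 (-2.19), Hspa1a (-1.95), Lrmda (-1.89), Gzme (-1.88), Trerf1 (-1.85), Xcl1 (-1.80), Slc8a1 (-1.76) and Asap1 (-1.70). Jun, part of the AP-1 factor and also a gene of dissociation stress, stood at 214, 31.0 and 34.4 CPM. Its first-pair ratio was -2.03 in Lag3-negative cells and 0.04 in macrophages. The 7 cell stress genes summed to 1188, 706 and 798 CPM in members, and the part of stress was not tested. Trerf1 was spread over 354, 158 and 501 cells at 360, 100 and 126 CPM. Drawn after thinning, the gate gave a ratio of -1.46 for Jun, 0.32 for Slc8a1, -0.57 for Hspa1a and for Lrmda, 0.97 for Serpinb1a, 1.21 for Rrad and 1.11 for Asb2. With Mki67 and Top2a at 0 the ratio was -1.57 for Eomes and -2.95 for Hspa1a. Without called doublets it was -3.92 for Eomes and -0.94 for Lrmda, and without NK or gamma-delta transcripts -3.86 for Eomes.

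The 10 highest ratios of the combination over IL-10/2-Trikine belonged to Xcl1 (1.54), Hspa1a (1.39), Gldc (1.23), Ccl4 (1.22), Hspa1b (1.20), Ccl3 (1.17), Nrgn (1.01), Serpine2 (1.01), Mir155hg (0.90) and Ifng (0.86). The Xcl1 ratio was 2.24 with Mki67 and Top2a at 0 and 1.91 with the gate drawn after thinning. It was 1.35 without NK or gamma-delta transcripts and 1.105 without cells that held any Lyz2, C1qa, C1qb, S100a8 or S100a9 UMI. Hspa1a and Hspa1b are near-identical heat shock genes whose reads may be split, and their ratios were 0.01 and 0.03 after thinning and 2.25 and 2.38 with Mki67 and Top2a at 0. Gldc, an enzyme of glycine breakdown, stood at 28.7, 36.7 and 85.9 CPM and Nrgn, which encodes a calmodulin-binding protein, at 48.0, 39.4 and 79.2 CPM, both higher in members than in Lag3-negative cells (6.42, 16.1 and 30.8 CPM for Gldc, 12.2, 20.8 and 37.2 CPM for Nrgn). Mir155hg, the host gene of the microRNA miR-155, stood at 57.4, 32.4 and 60.4 CPM.

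The lowest ratios of the combination over IL-10/2-Trikine were mostly of genes that macrophages and other antigen-presenting cells express. They were Il13 (-2.36), H2-Eb1 (-1.61), Il1b (-1.53), Basp1 (-1.48), H2-Aa (-1.48), H2-Ab1 (-1.38), Cd74 (-1.25), Ifi30 (-1.14), Lgals7 (-1.13) and Tyrobp (-1.10). The Il13 ratio was -1.34 with the gate drawn after thinning and -1.57 with at least 2 Lag3 UMIs asked for. It was -1.80 without the highest cell of each library, -1.97 with cells weighted equally and -2.69 without NK or gamma-delta transcripts. H2-Eb1, an MHC class II chain, stood at 361, 400 and 131 CPM in members, at 6048, 4671 and 5580 CPM in macrophages and at 1983, 872 and 1450 CPM in empty droplets. Il1b stood at 138, 245 and 84.6 CPM in members and at 3217, 3939 and 3515 CPM in macrophages. H2-Eb1 was seen in 135 of 559, 80 of 539 and 339 of 1533 members, and the 10% of members with most of it held 93.1%, 97.8% and 85.0% of its UMIs. Cd74 was seen in 214, 162 and 550 members and Il1b in 70, 42 and 185. Without thinning, the lower levels of the combination thus did not come with a smaller share of members that held these genes. Its members were also deeper, at a median of 5126 UMIs against 4500 with IL-10/2-Trikine, and shares at equal depth were not compared for these genes. Without called doublets the ratios were -1.25 for H2-Eb1, -1.09 for H2-Aa and -1.01 for H2-Ab1, still past 2-fold, and -0.93 for Il1b, -0.76 for Cd74, -0.75 for Ifi30 and -0.68 for Tyrobp. Without cells that held any Lyz2, C1qa, C1qb, S100a8 or S100a9 UMI they were larger in size for H2-Eb1 (-1.85), H2-Aa (-1.84), H2-Ab1 (-1.62), Cd74 (-1.47) and Basp1 (-2.22).

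The share of a cytokine's transcripts that members supplied varied between genes. They held 24.1%, 11.6% and 29.0% of all Csf1 UMIs in kept barcodes, 10.9%, 4.23% and 21.5% of Ifng, 9.73%, 4.99% and 20.8% of Ccl3, and 25.1%, 9.08% and 28.4% of Il21, against 2.13%, 1.56% and 5.72% of the UMIs of all genes. Of Tnf they held less than that, 0.904%, 0.996% and 1.26%. Of Csf1 UMIs in the T cell gate, they held 40.2%, 17.7% and 33.6%. They held 9.95%, 4.31% and 14.5% of Pdcd1 and 3.31%, 2.61% and 11.0% of Prf1. Their shares of Gzmb (1.30%, 1.32% and 6.34%) and of Ccl5 with IL-10/2-Trikine and the combination (1.70% and 4.51%, after 4.76% with mono-IL-10) lay nearer to that of all genes. These shares depend on how many cells of each kind were sorted and read as well as on levels within members.

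**Figure D5:**
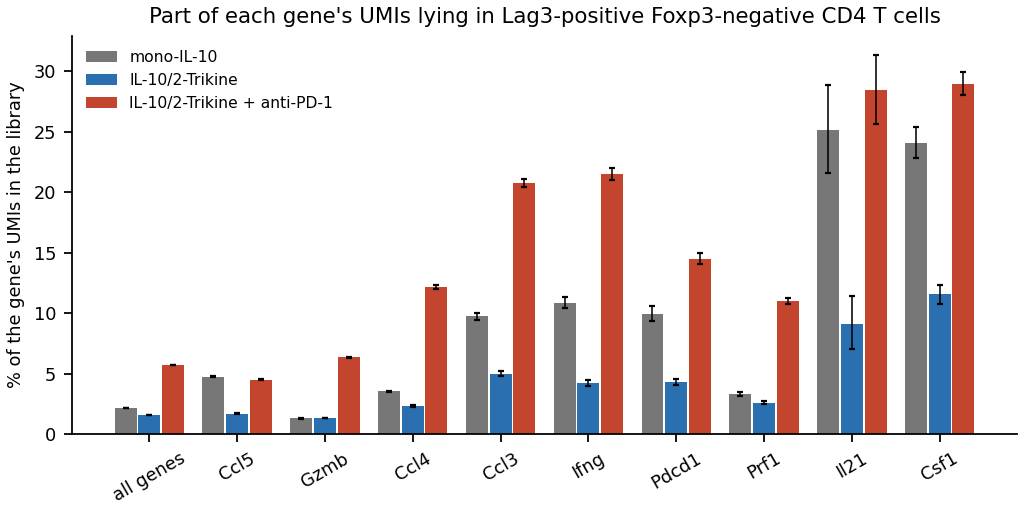
Percent of the UMIs of each gene in all kept barcodes of a library that were found in members, with exact binomial 95% intervals, beside the percent for all genes. Csf1 reaches 24.1%, 11.6% and 29.0%, against 2.13%, 1.56% and 5.72% for all genes.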

How the data were processed

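Each library was deposited by the authors as a matrix of UMI counts per gene and barcode from Cell Ranger 8.0.0, per the file headers; the labels name the mm10 build and the methods another version and GRCm39. Raw matrices held 1425273, 1520583 and 1491573 barcodes and 158570946, 197176873 and 175794959 UMIs. A barcode needed 200 genes or more and a mitochondrial share of no more than 20% (22235, 22707 and 26967 passed), more than the study kept under the same filter. UMIs were summed over the cells of a class in each library and divided by the class total (CPM). With 1 library per group no test was made; exact Poisson, binomial and conditional binomial 95% intervals cover counting error only. Genes needed at least 20 UMIs in a pair, and 2-fold served as the size limit. Called doublets (Scrublet) were kept and left out as an alternative. The members and gene lists were chosen with earlier results of these data known.

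Named between libraries were the 10 genes at either end of the log2 ratios that had 50 CPM or more in the higher library. Between members and Lag3-negative cells they were the 15 with the highest smallest ratio and the 15 with the lowest largest ratio. Genes of the gate, mitochondrial, ribosomal, hemoglobin, antigen receptor, Xist and Y-linked genes and clone names were left out, and genes of the lists added. Other alternatives were TMM factors (edgeR 4.0.16) and median-of-ratios factors in place of totals, other UMI minimums, at least 500 genes, and stricter gates. Python 3.11.15, numpy 2.4.6, scipy 1.17.1, pandas 2.3.3, scanpy 1.11.5 and R 4.3.3 were used, and the ratio and interval code was tested on simulated data.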

Additional observations from a re-analysis of the deposited data

Results flagged for a closer look

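Between members and Lag3-negative cells, 3 genes of the lists had a log2 ratio of at least 0.5 in one direction in 1 library and in the other direction in another, a size limit chosen after the values were seen. Gzmc, a granzyme gene of strongly stimulated killer cells, stood at 2.64 with mono-IL-10 and 1.92 with the combination but at -0.57 with IL-10/2-Trikine. It came from 8, 26 and 91 members, and 1 cell held 47.8% of its 23 UMIs with mono-IL-10. Il13 stood at 1.29 in the IL-10/2-Trikine library and -1.67 with the combination, and 1 cell held 55.5% of its UMIs in the members of the former. Itgae, the integrin chain CD103 of tissue-resident T cells, stood at 0.56 with mono-IL-10 and -0.69 with the combination, in 75 and 218 members. With 1 library per group these differences were not tested.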

How the results depend on the processing

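The 21 results that answer a comparison gave 212 values under alternatives, of which 155 stayed within their counting interval or within 1.5 times the count, 56 moved further and 1 turned its direction. The other 76 results gave 947 values, of which 831 stayed, 114 moved and 2 turned. A turn was counted only where the interval, or the quartiles of a list, lay on one side of 0. List medians near 0 changed sign besides, such as those of the second pair for cytokines (0.24 with Mki67 and Top2a at 0) and for IL-2 and STAT5 genes (0.17 after thinning). Causes were not tested. No paired analysis was possible because each group is 1 library. With at least 2 Lag3 UMIs asked for, the log2 ratio of member shares went from 0.03 to -0.31 for IL-10/2-Trikine over mono-IL-10 (the first pair) and from 0.55 to 0.91 for the combination over IL-10/2-Trikine (the second pair), Ifng was -0.62 and 0.68, Ccl3 -0.86 and 0.81, and Csf1 in the second pair turned to -0.041. There, members over Lag3-negative cells were 1.84, 1.45 and 1.81 for Ifng, 4.29, 3.01 and 2.85 for Ccl3, and 1.78 for Csf1 with IL-10/2-Trikine. With cells thinned to 2000 UMIs before the gate, Ifng was -1.19 and 0.97, Csf1 -0.65 and 0.45, and Ccl3 -1.48 and 1.44 in the 2 pairs, 189 genes were higher and 568 lower in the second, Slc8a1 turned to 0.32 in the first and the Treg median to 0.11 in the second. Members over Lag3-negative cells were then 0.33 and 0.69 for Ifng in the libraries with the Trikine, 2.12 for Csf1 with mono-IL-10, and 2.42, 0.91 and 0.73 for Ccl3. TMM factors put Ifng at -0.74 and Ccl3 at -1.10 in the first pair, and median-of-ratios factors Ccl3 at -1.11. With Mki67 and Top2a at 0, Csf1 was -0.78 in the first pair, Ccl3 1.40 in the second, and members over Lag3-negative cells with IL-10/2-Trikine 1.20 for Csf1 and 1.74 for Ccl3. With cells weighted equally, Csf1 was -0.32 and Ccl3 -0.92 in the first pair, Ifng 0.73 and Ccl3 1.05 in the second. Without called doublets, Ccl3 was -1.09 in the first pair, Ifng 0.73 and Ccl3 0.99 in the second, and Ccl3 2.72 in members over Lag3-negative cells with IL-10/2-Trikine. Without cells that held NK or gamma-delta transcripts, Ccl3 was 1.08 in the second pair. A minimum of 50 UMIs left 126 genes higher and 203 lower in the first pair and 87 and 132 in the second, and a minimum of 1 UMI gave 745 and 1090, and 621 and 761. Of alternatives chosen after seeing the data, leaving out cells with any Lyz2, C1qa, C1qb, S100a8 or S100a9 UMI gave -0.97 for Ccl3 in the first pair and, for members over Lag3-negative cells, 1.77 for Ifng with the combination and 4.21 and 2.47 for Ccl3 with mono-IL-10 and the combination. Without the highest cell of each library, Ccl3 was -1.12 in the first pair. In the B cell gate, 114 and 116 cells of the libraries with the Trikine limit how small a background share can be seen.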
